A study of Mus musculus with 14 samples.

Results

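Regions that still carried H3K27me3 after loss of Ezh2 are described here for shorter islands, in mouse medulloblastoma cells. An island is a run of enriched windows joined across gaps. The kept islands are the H3K27me3 islands of Cas9 tumour cells that lie on autosomes, are shorter than 20 kb and share at least 1 bp with an H3K27me3 island of Ezh2 knockout cells. There were 1572 of them among 13817 autosomal islands under 20 kb, or 11.4% (10.9 to 11.9), and among 14107 islands in all. The 12245 islands of the same kind with no knockout island are called lost islands below. A further 107 overlapped autosomal islands of 20 kb or more, and 1 overlapped island on X, were outside the rule. The kept islands were selected on 2 measured values, the length of the Cas9 island and its overlap with a called knockout island, so their number, their kept length and their H3K27me3 scores are given as a description.

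Chromatin immunoprecipitation with sequencing was used, in which an antibody recovers the DNA that its target sits on. The tumour cells were Group 3 medulloblastoma tumorspheres with p53-/-;p18-/- genotype, over-expressing Myc per the study's design text. They were labelled Cas9 as controls, or Ezh2KO with genotype p53-/-;p18-/- ;Ezh2-/-, and were profiled for H3K27me3, H3K27ac and H3K4me3. Per the labels, tumorspheres received retroviral vectors, were sorted by RFP and GFP, expanded in culture and implanted into the cortex of immunodeficient CD-1 nu/nu mice; the labels do not say whether the profiled cells were cultured or taken from such tumours, nor whether the knockout is 1 clone. Neurospheres, floating cultures of neural cells, also of p53-/-;p18-/- genotype, gave 3 lists with an antibody to Cas9 (labelled U6, Suz12F1, Suz12F2) and 2 lists with an antibody to Gfi1 (labelled Cas9 and Suz12F2). The terms U6, F1 and F2 are not explained in the labels.

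Each group held 1 library, so no value has a replicate error and no test across samples was possible. Bracketed ranges are Wilson 95% intervals, or Newcombe intervals for differences between shares, and cover counting error over regions only. Neighbouring islands are not independent, so these ranges may be too narrow. Read depth is unknown. Positions are in build mm9. Gene names were not assigned, because no annotation of this build was used here. For the same reason, neither the targeted Ezh2 exon nor markers of the labelled tissue were checked.

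H3K27me3 is the trimethylated form of lysine 27 on histone H3. It is deposited by Polycomb repressive complex 2, whose main catalytic subunit is Ezh2 and whose core includes Suz12, and it is linked to silencing of developmental genes. Ezh1, a related enzyme, can also methylate this lysine. H3K4me3 marks promoters and H3K27ac marks active promoters and enhancers, and promoters with both H3K4me3 and H3K27me3 are called bivalent. Gfi1 is a zinc finger transcriptional repressor. Cas9 is the bacterial nuclease used with guide RNAs to cut DNA.

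Most kept islands were kept in part. The 1572 islands spanned 9.23 Mb in Cas9 cells, of which 4.37 Mb, or 47.3%, was covered in the knockout. The share of an island's length covered ranged from 1.54% to 100%, with a median of 55.6% and quartiles of 32% and 82.4%. Of all kept islands, 243 (15.5%, 13.8 to 17.3) were covered over their whole length and 305 (19.4%, 17.5 to 21.4) over 90% or more. At the other end, 259 (16.5%, 14.7 to 18.4) were covered over less than 25%, and 56 over less than 10%. The plot of kept length against island length shows that whole cover was found mostly among short islands.

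**Figure D1:**
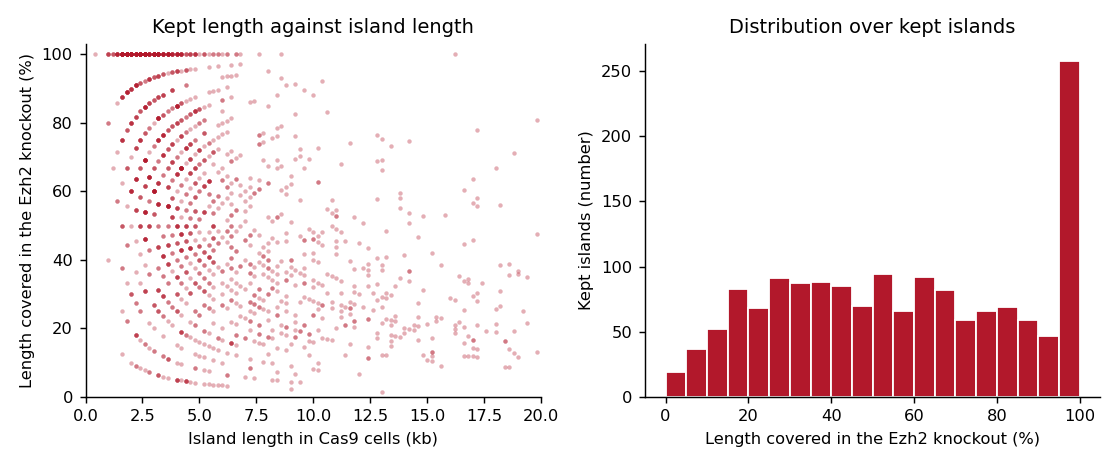
Left, each point is 1 of the 1572 kept islands, with its length in Cas9 cells (kb) on the x axis and the share of that length covered by knockout H3K27me3 islands (%) on the y axis; right, the number of kept islands per 5% step of that share. The share spreads over the whole range with a median of 55.6%, and the 243 islands covered over their whole length stand in the last step; points line up in curves because island ends lie on a grid.

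Longer islands were overlapped more often and kept over a smaller part. Kept islands made up 7.99% (6.60 to 9.65) of islands under 2 kb, 9.44% (8.82 to 10.1) from 2 to 5 kb, 13.6% (12.5 to 14.7) from 5 to 10 kb and 24.0% (21.4 to 26.8) from 10 to 20 kb. The median part kept was 100% in the shortest class, then 69.2%, 42.7% and 28.8%. How much overlap island length alone would give was not tested. The median kept island was 4600 bp long, against 3600 bp for lost islands. Its stretch of cover in the knockout had a median of 2400 bp.

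Within a length class the kept islands ranked higher in the Cas9 list than the lost ones, except in the shortest. The deposited score is a whole number that grows with length, and is used here only to rank islands within 1 list. The median score was 28 in both sets under 2 kb, 47 against 44 from 2 to 5 kb, 112 against 97 from 5 to 10 kb, and 285 against 220 from 10 to 20 kb. Over all lengths the median score percentile was 63.0 for kept islands and 47.9 for lost ones. The 1636 knockout islands that touched kept islands stood at a median percentile of 63.0 in the knockout list, and the 3669 other autosomal knockout islands at 43.3. Their median lengths were 3400 bp and 3000 bp.

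Many knockout islands reached beyond the Cas9 island they met. Of the 1572 kept islands, 1405 met 1 knockout island, 151 met 2, 15 met 3 and 1 met 4. Among the 1405, the knockout island lay inside both edges in 421 (30.0%, 27.6 to 32.4). It reached or passed 1 edge in 741 and both in 243, where ends that coincide count as reached. In all, the knockout island ran past an edge of the Cas9 island at 1041 kept islands (66.2%, 63.9 to 68.5), and 68.3% of the length of these knockout islands lay inside kept islands. A knockout island was shared with another kept island at 222 of them, so these are not separate events. Among lost islands, 179 had a knockout island within 1 kb and 724 within 5 kb, and the median gap to the nearest was 165.6 kb.

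The limits of the rule cut through like regions. The 3 longest kept islands measured 19.8 kb each, at chr7:144497601-144517400, chr19:59230801-59250600 and chr5:120686201-120706000. They were covered over 47.5%, 13.1% and 80.8%. The shortest overlapped islands left out for length measured 20 kb, at chr11:68964201-68984200 and chr14:118620201-118640200, and 20.2 kb, at chr5:28784201-28804400. Their cover was 23%, 13% and 14.9%. At the limit of overlap, kept islands at chr5:122515601-122528600, chr16:91098801-91107800 and chr15:83794401-83800000 shared 200 bp with a knockout island. Lost islands at chr5:122336601-122353000, chr7:53375401-53387000 and chr5:120770401-120778000 had one directly next to them, with a gap of 0 bp.

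The 10 kept islands with the highest scores in Cas9 cells show the range of what remained. The first, at chr5:140015601-140034800, had a score of 746 and kept 4800 bp, or 25%, as a knockout island from 140019001 to 140023800. An H3K4me3 peak of the knockout alone, from 140019975 to 140020295, lay inside that stretch, and the island held 0 H3K27ac peaks in either kind of cell. The second, at chr1:75439201-75457200, kept 66.7% of 18 kb and held 0 peaks of either active mark in either kind of cell. The third, at chr9:62986201-63003400, kept 55.8%, and its 1 H3K4me3 peak was called in Cas9 cells alone. The fourth is the 19.8 kb island on chromosome 7 named above, which met 3 knockout islands. Its H3K4me3 peak measured 180 bp in Cas9 cells and 1123 bp in the knockout, where an H3K27ac peak from 144505239 to 144505902 was called as well. All these peaks lay in a kept stretch.

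The fifth stands apart from the others by its marks. At chr8:125949401-125958000, an island of 8600 bp with a score of 619 was covered over its whole length by a knockout island at percentile 99.96 of the knockout list. It held 3 H3K4me3 and 2 H3K27ac peaks in Cas9 cells, and 5 and 2 in the knockout. Its widest H3K4me3 peak ran over 2952 bp in Cas9 cells and 3062 bp in the knockout, at percentiles 96.8 and 99.98 of those lists. Here H3K27me3 and both active marks were called in 1 island in each kind of cell. Lists from whole cell populations do not show whether the marks sat on the same alleles.

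The remaining 5 kept from 16.3% to 58.1% of their length. They lay at chr10:79949201-79967600, chr16:91218201-91235600, chr4:154321601-154337800, chr8:72397401-72414600 and chr19:46387201-46404200. None of these 5 held an H3K27ac peak, and 2 held no H3K4me3 peak either, on chromosomes 16 and 4. At the chromosome 10 island the kept 3000 bp held all its H3K4me3 peaks, of which Cas9 cells had 2 and the knockout 1. At the chromosome 19 island the kept stretches, from 46392001 to 46393400 and from 46394201 to 46397800, held none, and its H3K4me3 peaks lay past 46402597, in a stretch where H3K27me3 was no longer called.

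When all lengths were pooled, H3K4me3 in both kinds of cell and H3K27ac in Cas9 cells were about as scarce in kept as in lost islands. H3K27ac of the knockout was scarcer in kept islands under the rule used here. No H3K4me3 or H3K27ac peak of either kind of cell was found in 1355 of 1572, or 86.2% (84.4 to 87.8), against 86.6% (86.0 to 87.2) of lost islands. H3K4me3 peaks of Cas9 cells lay in 160 kept islands, or 10.2% (8.78 to 11.8), where 10.6% of all 13817 islands held one, and H3K4me3 peaks of the knockout lay in 196, or 12.5% (10.9 to 14.2), where 12.5% of all islands did. H3K27ac of Cas9 cells was found in 15 kept islands, or 0.954% (0.579 to 1.57), with 0.811% over all islands. H3K27ac of the knockout was found in 65, or 4.13% (3.26 to 5.24), with 5.31% over all islands. The share minus that of lost islands was -0.496 points (-2.00 to 1.19) for H3K4me3 in Cas9 cells, -0.0594 points (-1.71 to 1.76) for H3K4me3 in the knockout, 0.162 points (-0.251 to 0.793) for H3K27ac in Cas9 cells and -1.32 points (-2.29 to -0.153) for H3K27ac in the knockout. The first 3 of these intervals contain zero, and the fourth does not. With islands counted as kept only when 50% of their length was covered, the H3K4me3 differences were -3.44 (-5.08 to -1.46) and -5.12 (-6.80 to -3.095) points. The interval of the knockout H3K27ac difference contained zero with the upper 50% of Cas9 scores (-1.63, -3.07 to 0.105) and with the upper 50% of that list's own scores (-0.438, -0.975 to 0.307). That of H3K4me3 in Cas9 cells excluded zero without islands in Cas9 antibody islands (-1.77, -3.07 to -0.244), with the upper 50% of knockout scores (-2.30, -3.92 to -0.402) and under 10 kb (-2.02, -3.49 to -0.331). Besides 50% cover, that of knockout H3K4me3 excluded zero under 10 kb (-1.93, -3.53 to -0.125). It also did so with the upper 50% of that list's own scores (-1.91, -2.745 to -0.879), and contained zero in the other settings.

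Within length classes the differences were not the same as over all lengths. From 2 to 5 kb, where 769 kept islands lay, 5.85% (4.40 to 7.74) held H3K4me3 of Cas9 cells, against 9.04% (8.40 to 9.71) of lost islands, a difference of -3.18 points (-4.78 to -1.19). For H3K4me3 of the knockout the shares were 6.50% and 10.1%, a difference of -3.56 points (-5.25 to -1.49). For H3K27ac of the knockout they were 2.73% and 4.66%, a difference of -1.93 points (-2.99 to -0.45). From 10 to 20 kb the H3K4me3 shares were 21.1% against 17.0% in Cas9 cells and 27.4% against 24.5% in the knockout, with intervals of the difference from -1.46 to 10.2 and from -3.25 to 9.61 points. H3K27ac of Cas9 cells showed no such gap from 2 to 5 kb, at 0.65% against 0.732% (-0.515 to 0.798 points). Under 2 kb, where 98 kept islands lay, the interval excluded zero for knockout H3K4me3 (-9.52 to -0.207 points) and contained it for H3K4me3 of Cas9 cells and for knockout H3K27ac.

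**Figure D2:**
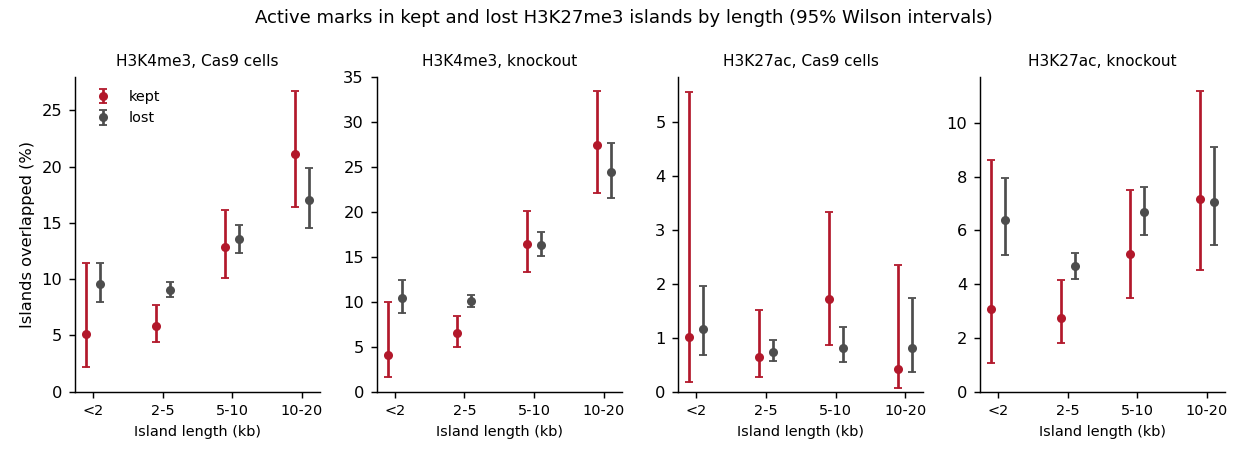
Share of H3K27me3 islands that overlap an active peak (y axis, %) in 4 length classes (x axis, kb), for kept (red) and lost (grey) islands; points are shares and bars Wilson 95% intervals, and each panel has its own scale. From 2 to 5 kb the kept islands lie below the lost ones for H3K4me3 in both kinds of cell (5.85% against 9.04% in Cas9 cells) and for H3K27ac in the knockout, and from 10 to 20 kb the intervals overlap in all 4 panels.

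The part kept went with the marks as well. H3K4me3 of the knockout was found in 60 of 259 islands kept under 25% (23.2%, 18.4 to 28.7), 67 of 421 kept from 25 to 50% (15.9%), 42 of 393 kept from 50 to 75% (10.7%), 12 of 194 kept from 75 to 90% (6.19%) and 15 of 305 kept over 90% or more (4.92%, 3.00 to 7.96). Since long islands were kept over smaller parts, this was also read within length classes. From 2 to 5 kb the shares were 6.0% (3.47 to 10.2) below 50% kept and 6.68% (4.90 to 9.03) at 50% or more. From 5 to 10 kb they were 18.8% (14.7 to 23.9) and 13.0% (8.98 to 18.5), with overlapping intervals. From 10 to 20 kb they were 32.0% (25.8 to 38.8) of 194 and 6.98% (2.40 to 18.6), or 3 of 43. Under 2 kb they were 1 of 10 and 3 of 88. The intervals thus stood apart only from 10 to 20 kb, on a count of 3 islands.

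H3K4me3 called in Cas9 cells was mostly called in the knockout too, in kept as in lost islands. Of the 160 with H3K4me3 in Cas9 cells, 140 had it in the knockout (87.5%, 81.5 to 91.8), against 92.9% (91.4 to 94.2) of the lost islands. These counts take a peak anywhere in the island, so they do not show that it lay where H3K27me3 was kept. H3K4me3 was found in Cas9 cells only at 20 kept islands (1.27%) and in the knockout only at 56 (3.56%). Among lost islands these shares were 0.76% and 2.61%. H3K27ac appeared in the knockout at 43 of 146 kept islands that had H3K4me3 and no H3K27ac in Cas9 cells, or 29.5% (22.7 to 37.3). Among lost islands this was 515 of 1210, or 42.6% (39.8 to 45.4). Of islands with neither mark in Cas9 cells, 8 of 1411 kept (0.567%) and 59 of 10938 lost ones (0.539%) had knockout H3K27ac. Among islands with H3K4me3, new H3K27ac was thus called less often in kept than in lost ones, and these shares were not adjusted for length.

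Over all peaks of each list, H3K4me3 peaks inside kept islands were shorter and of lower rank than those in lost islands. H3K27ac peaks as a whole were not of lower rank. Peaks of the knockout alone differed from this. Their median length for H3K4me3 was 288 bp at kept and 269 bp at lost islands, both at a median percentile of 13.5. For H3K27ac of the knockout alone the median percentile was 23.5 at kept and 26.1 at lost islands. The 206 H3K4me3 peaks of Cas9 cells that touched kept islands had a median length of 382 bp and a median percentile of 23.3 in their list, against 499 bp and 29.3 for the 1521 at lost islands. The whole list had a median length of 601 bp. In the knockout, 256 such peaks had a median of 380 bp, against 473 bp at lost islands and 516 bp over the whole list. The median percentile of H3K27ac peaks was 33.6 at kept and 24.0 at lost islands in Cas9 cells, from 18 and 108 peaks, and 33.4 and 31.2 in the knockout, from 76 and 771.

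Within kept islands, H3K4me3 peaks lay mainly in the stretches that kept H3K27me3. The 1572 islands were divided into 1756 kept stretches, which hold 47.3% of their length, and 1877 lost stretches. Of 83 centres of H3K4me3 peaks called in the knockout alone, 70 lay in kept stretches, or 84.3% (75.02 to 90.6). Of all 250 knockout H3K4me3 centres, 191 did (76.4%, 70.8 to 81.2), and of 198 in Cas9 cells, 145 did (73.2%, 66.7 to 78.9). Of 35 centres called in Cas9 cells alone, 25 did (71.4%, 54.95 to 83.7), so this placement was not particular to peaks of the knockout alone. The density of knockout-alone H3K4me3 was 16.0 centres per Mb in kept stretches, 2.67 in lost stretches and 8.40 in lost islands. H3K27ac followed with wider error: 40 of 58 centres of the knockout alone lay in kept stretches (69.0%, 56.2 to 79.4), and 51 of all 74 knockout centres (68.9%, 57.7 to 78.3). Peaks of the knockout alone were found in 74 kept islands for H3K4me3, or 4.71% (3.77 to 5.87) with 3.56% over all islands, and in 53 for H3K27ac, or 3.37% (2.59 to 4.38) with 4.62% over all islands.

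Peaks called in Cas9 cells alone were rarer. For H3K4me3 they lay in 32 kept islands, or 2.04% (1.45 to 2.86), with 1.32% over all islands and 1.23% (1.05 to 1.44) of lost ones. The gap was found from 10 to 20 kb, where 13 of 237 kept islands held one, or 5.49% (3.23 to 9.16), against 1.73% (1.01 to 2.94) of lost ones. For H3K27ac they lay in 3 kept islands, with 0.0651% over all islands. Overlapping peaks of both kinds of cell lay in 136 kept islands for H3K4me3, or 8.65% (7.36 to 10.1) with 9.71% over all islands, and in 14 for H3K27ac, or 0.891% (0.531 to 1.49) with 0.782% over all islands.

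**Figure D3:**
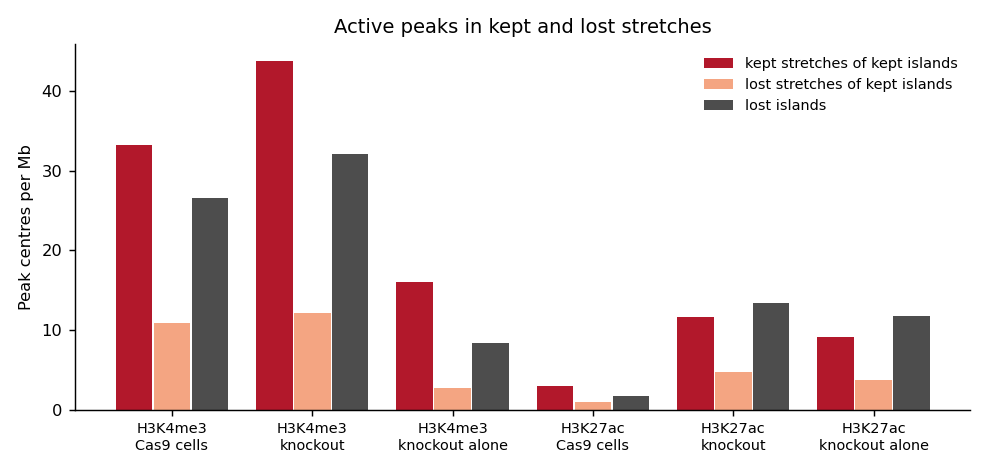
Centres of H3K4me3 and H3K27ac peaks per Mb (y axis) in the kept stretches of kept islands (red), the lost stretches of the same islands (orange) and lost islands (grey), for peaks of Cas9 cells, of the knockout and of the knockout alone (x axis); there is 1 library per list, so no error is drawn. In every class the kept stretches stand above the lost stretches, for knockout-alone H3K4me3 at 16.0 against 2.67 per Mb, whereas for H3K27ac of the knockout the lost islands stand highest.

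Position within an island was measured beside this, since H3K4me3 peaks and kept stretches lean to the middle. The central 50% of each island held 56.8% of the kept length and 43.9% of the lost length. It also held 67.3% (65.1 to 69.4) of knockout H3K4me3 centres in lost islands, which have no kept stretch. Of knockout H3K27ac centres it held 51.4% (40.2 to 62.4) in kept islands and 62.7% (59.2 to 66.1) in lost ones. For H3K27ac of Cas9 cells these shares were 50% (29.0 to 71.0) and 40.2% (31 to 50.2). Within the central 50% of kept islands, 53.7% of the length was kept, and 56 of 60 knockout-alone H3K4me3 centres lay there in kept stretches (93.3%, 84.1 to 97.4). For knockout H3K27ac it was 26 of 38 (68.4%, 52.5 to 80.9), an interval that contains the share of length kept. For H3K27ac of the knockout alone it was 23 of 32 (71.9%, 54.6 to 84.4), an interval above that share. Over whole islands, 16 of 20 such H3K27ac centres lay in kept stretches from 2 to 5 kb (80%, 58.4 to 91.9), where 65.5% was kept. From 5 to 10 kb it was 12 of 20 (60%, 38.7 to 78.1), where 45.4% was kept. From 10 to 20 kb it was 11 of 17 (64.7%, 41.3 to 82.7), where 32.9% was kept. Without the 227 kept islands that overlap a Cas9 antibody island, the share of knockout-alone H3K4me3 over whole islands was 86.3% (74.3 to 93.2), from 44 of 51 centres. With those islands included, it was 15 of 16 from 2 to 5 kb, 31 of 34 from 5 to 10 kb and 23 of 32 from 10 to 20 kb, where 65.5%, 45.4% and 32.9% of the length was kept.

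Named examples show both arrangements. Among the 5 highest-scoring kept islands with H3K4me3 of the knockout alone, the first 2 are chr5:140015601-140034800 and chr8:125949401-125958000, described above. At chr4:21600801-21618000, the kept stretch ran from 21604801 to 21607200 and the new H3K4me3 peak lay outside it, from 21615961 to 21616291. The 19.8 kb island on chromosome 19 had a new H3K4me3 peak with H3K27ac before its kept stretch, which began at 59242201, and a second one, without H3K27ac, over the end of that stretch. At chr2:172371201-172388200, the new peak from 172376269 to 172376632 lay in the kept stretch, which covered 14.1% of the island. These islands were long and kept over small parts, with the exception of the fully covered one on chromosome 8. Most of their new H3K4me3 peaks were of low rank in the knockout list. Those on chromosomes 2, 4 and 5 stood at percentiles 4.67, 18.45 and 18.45, and those on chromosome 19 at 27.3 and 34.8. The new peaks on chromosome 8 stood at 76.7 and 56.1.

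New H3K27ac was found beside older H3K4me3 in several high-scoring kept islands. At chr15:76345201-76354400, a knockout H3K27ac peak of 488 bp lay over H3K4me3 called in both kinds of cell, past the end of the kept stretch at 76353600. At chr4:124324401-124340800, and chr15:79632401-79647800, the new H3K27ac peak lay in the kept stretch, at percentiles 6.45 and 8.66 of the knockout list. In each case the H3K4me3 peak beneath was already called in Cas9 cells. The fifth island with H3K4me3 in both kinds of cell, at chr6:29113401-29132200, held 3 such peaks and no H3K27ac, and 1 of its 3 peaks lay in the kept stretch.

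Islands covered over 90% or more were short, with a median of 2800 bp, and had H3K4me3 less often than kept islands as a whole. Of these 305, H3K4me3 of Cas9 cells lay in 12 (3.93%, 2.27 to 6.75) where 10.2% of all kept and 10.7% of lost islands had it. H3K27ac of the knockout lay in 10 (3.28%, 1.79 to 5.93), against 4.13% and 5.46%. No adjustment for length was made here. After the chromosome 8 island, the highest-scoring lay at chr14:35630801-35639400, chr1:134654001-134670200, chr15:73665201-73674000 and chr5:121415201-121425600. The island on chromosome 1 measured 16.2 kb and was covered by a knockout island of 17.4 kb. These last 3 held 0 active peaks in either kind of cell, and the one on chromosome 14 held 1 H3K4me3 peak of the knockout alone.

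Kept islands overlapped neurosphere Gfi1 antibody islands more often than lost ones at every length. The Gfi1 list of Cas9 neurospheres overlapped 1464 kept islands, or 93.1% (91.8 to 94.3), with 79.6% over all islands and 77.8% (77.1 to 78.6) of lost ones. The Suz12F2 list overlapped 1409, or 89.6% (88.0 to 91.0), with 74.9% over all islands and 73.0% (72.2 to 73.8) of lost ones. The differences were 15.3 points (13.8 to 16.7) and 16.6 points (14.8 to 18.2). They were smaller within the 5 Mb windows richest in kept islands, described below. From 2 to 5 kb they were 16.1 and 16.9 points, and from 10 to 20 kb, where nearly all islands were overlapped, 2.93 and 3.42 points. The kept share was higher on 19 of 19 autosomes with either list. Both lists overlapped 1372 kept islands (87.3%), against 68.6% of lost ones. Overlap with 1 list alone was rarer in kept islands. The Cas9 list alone overlapped 92 (5.85%, against 9.23% of lost islands) and the Suz12F2 list alone 37 (2.35%, against 4.41%). Neither list overlapped 71 kept islands (4.52%, 3.596 to 5.66), against 17.7% (17.1 to 18.4) of lost islands. These lists cover a large part of the genome, 367.9 and 294 Mb, so overlap with them is common.

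The cover by Gfi1 antibody islands followed the same order within kept islands. The list of Cas9 neurospheres covered 85.2% of the length of kept stretches, 76.0% of lost stretches and 66.1% of lost islands. The Suz12F2 list covered 79.3%, 66.9% and 56.8%. The highest-ranking Gfi1 island on each overlapped kept island had a median percentile of 86.3 in Cas9 neurospheres and 85.8 in Suz12F2 neurospheres, against 80.9 and 79.9 for lost islands. Neither cover nor rank was adjusted for length, and kept islands were longer than lost ones. Of the 10 highest-scoring kept islands, all 10 overlapped both lists. From 10 to 20 kb, these lists overlapped 97.1% and 95.7% of lost islands too, so this count is not particular to kept islands.

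Cas9 antibody islands were fewer and overlapped kept islands more often than lost ones in the U6 and Suz12F2 lists. The U6 list overlapped 187 kept islands, or 11.9% (10.4 to 13.6), with 4.95% over all islands and 4.06% (3.72 to 4.42) of lost ones. The Suz12F2 list overlapped 61, or 3.88% (3.03 to 4.95), with 1.74% over all islands and 1.47% (1.27 to 1.70) of lost ones. The Suz12F1 list overlapped 22, or 1.40% (0.926 to 2.11), with 1.11% over all islands and 1.07% (0.902 to 1.27) of lost ones, and the interval of that difference, from -0.184 to 1.06 points, contains zero. For U6 the kept share was higher on 19 of 19 autosomes and in each length class, from 15.3% against 3.01% under 2 kb to 25.7% against 9.59% from 10 to 20 kb. For Suz12F2 it was higher on 16 of 19. The U6 difference was smaller within the 5 Mb windows richest in kept islands, described below.

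**Figure D4:**
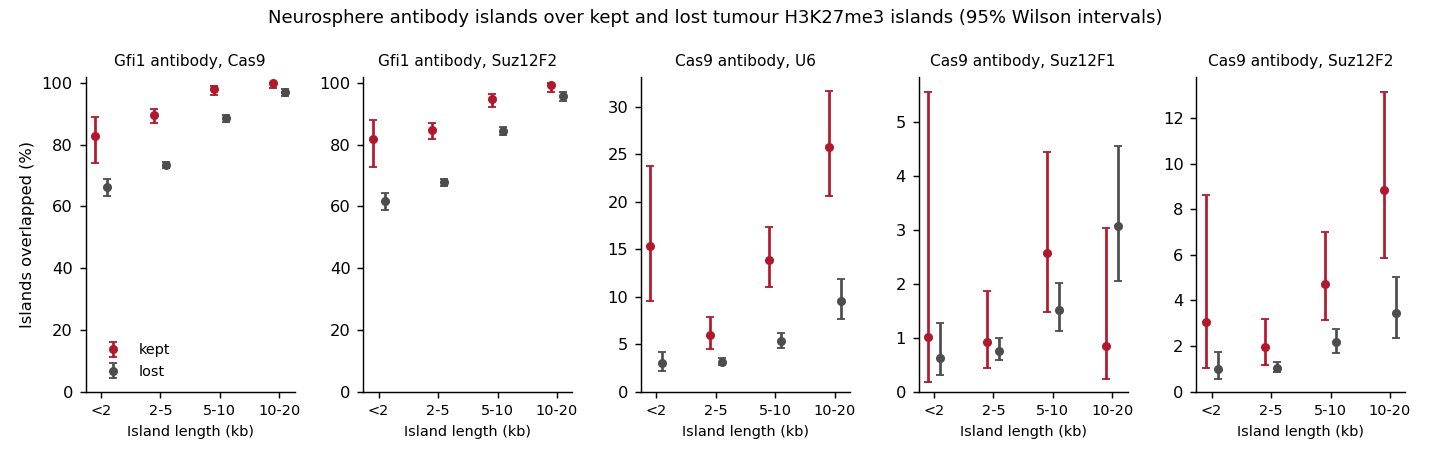
Share of tumour H3K27me3 islands that overlap a neurosphere antibody island (y axis, %) in 4 length classes (x axis, kb), for kept (red) and lost (grey) islands and each of the 5 neurosphere lists; bars are Wilson 95% intervals and each panel has its own scale. Kept islands stand above lost ones in every class for the Gfi1 lists and for U6 (25.7% against 9.59% from 10 to 20 kb), while for Suz12F1 the intervals overlap.

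At least 1 of the 3 Cas9 antibody lists overlapped 227 kept islands, or 14.4% (12.8 to 16.3), with 6.77% over all islands and 5.79% of lost ones. Most of these, 145, were in U6 only, 40 in U6 and Suz12F2, 20 in Suz12F1 only, 20 in Suz12F2 only, 1 in U6 and Suz12F1, and 1 in all 3. A Gfi1 antibody island overlapped 225 of the 227 as well, and 690 of the 709 lost islands with a Cas9 antibody island. Of the kept islands in U6, 84 of 187 had H3K4me3 in either kind of tumour cell (44.9%, 38.0 to 52.1), against 67.6% (63.4 to 71.6) for lost islands. Without H3K4me3 in either cell, U6 islands lay at 7.596% (6.30 to 9.13) of 1356 kept islands and at 1.52% (1.30 to 1.77) of lost ones. With it, they lay at 38.9% (32.6 to 45.5) and 20.7% (18.8 to 22.7). The higher share of kept islands was therefore measured with and without H3K4me3.

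Cas9 antibody calls of the U6 and Suz12F2 lists lay mainly in kept stretches, and those of Suz12F1 did not. Of 180 U6 centres in kept islands, 139 were in kept stretches (77.2%, 70.6 to 82.7), as were 50 of 59 of Suz12F2 (84.7%, 73.5 to 91.8). For Suz12F1 it was 6 of 14 (42.9%, 21.4 to 67.4), where 47.3% of the length was kept. Of the 84 H3K4me3 peaks of the knockout alone at kept islands, 24 overlapped a U6 island (28.6%), against 13.4% of such peaks at lost islands. The part of the Cas9 antibody calls in the other results was measured by leaving those islands out, as given above for knockout-alone H3K4me3. The highest-scoring kept islands in Cas9 antibody islands were those on chromosomes 5, 9, 7, 8 (from 72397401) and 19 above. The one on chromosome 8 was overlapped in all 3 lists, over 41.9% of its length by U6, 11.6% by Suz12F1 and 50% by Suz12F2. The highest-scoring kept islands outside all 5 neurosphere lists were of lower rank, at chr8:87675001-87682600 at percentile 76.5, then chr11:118658001-118662200, chr1:40515801-40521200, chr10:77172801-77177800 and chr1:172170801-172175800. These 5 held 0 active peaks.

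Kept islands were spread unevenly over the autosomes. At chromosome 4, 240 of 1215 islands were kept, or 19.8% (17.6 to 22.1), followed by 17.1% (14.4 to 20.2) on chromosome 15, 16.0% (14.1 to 18.2) on chromosome 5 and 15.2% (12.3 to 18.7) on chromosome 12. The lowest shares were 6.0% (4.65 to 7.71) of 933 islands on chromosome 9 and 6.05% (3.81 to 9.47) of 281 on chromosome 3. The intervals of chromosomes 4 and 9 do not meet, whereas those of the 8 lowest overlap each other. Median island length varied little, from 3400 to 4000 bp. Among islands from 2 to 5 kb alone, the share was 18.4% (15.7 to 21.4) on chromosome 4 and 5.25% (3.73 to 7.36) on chromosome 9. The knockout list was denser on chromosome 4, with 0.498 knockout islands per Cas9 island, than on chromosome 9, with 0.241. The orders did not match throughout. Chromosome 1 had 0.485 at a kept share of 10.9%, and chromosome 10 had 0.224 at 10.1%. The part of this density in the order of the chromosomes was not tested.

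**Figure D5:**
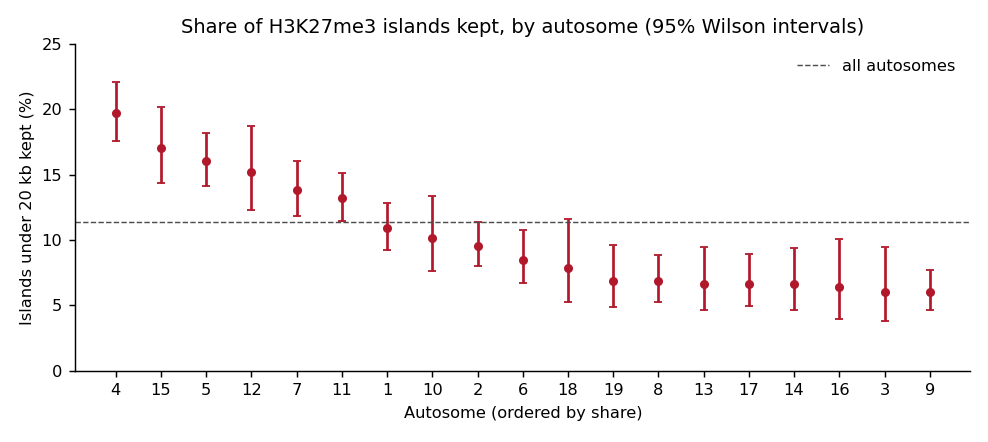
Share of H3K27me3 islands under 20 kb that were kept (y axis, %) on each autosome (x axis, ordered by that share); points are shares, bars Wilson 95% intervals, and the dashed line is the share over all autosomes, 11.4%. Chromosomes 4, 15, 5, 12, 7 and 11 lie above the line with their whole interval, and chromosome 9 is lowest at 6.0%.

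Kept islands also lay near each other. The nearest island was itself kept for 652 of 1572 kept islands, or 41.5% (39.1 to 43.9), and for 7.54% (7.08 to 8.02) of lost ones. Of 470 windows of 5 Mb with an island, 184 held no kept island and 19 held 20 or more. Those 19 windows held 611 kept islands. The fullest were at chr4:135000001-140000000 and from 150000001 to 155000000, with 62 kept islands each, out of 176 and 162. Next came chr5:110000001-115000000 with 55 of 147 and chr15:75000001-80000000 with 43 of 137. The limit of 20 was chosen after the counts were seen.

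The kept islands of these 19 windows had fewer active marks than other kept islands. H3K4me3 of the knockout lay in 20 of 611, or 3.27% (2.13 to 5.00), against 176 of 961 elsewhere, or 18.3% (16.0 to 20.9). Lost islands of the same windows held it at 10.2% (8.79 to 11.9). H3K27ac of the knockout lay in 1.80% (1.01 to 3.19) and 5.62% (4.33 to 7.26) of kept islands, and U6 islands in 5.24% (3.73 to 7.30) and 16.1% (13.9 to 18.6). Median lengths of these kept islands were similar, at 4400 and 4600 bp. U6 islands lay in 3.30% (2.50 to 4.35) of lost islands inside the windows and 4.16% (3.80 to 4.555) outside. Inside the windows, the U6 intervals of kept and lost islands thus overlap. Outside the 19 windows, lost islands held knockout H3K4me3 at 12.8% (12.2 to 13.5), less often than kept islands did, with a shorter median length of 3600 bp. For H3K4me3 of Cas9 cells the shares outside the windows were 14.8% (12.7 to 17.2) of kept and 11.02% (10.4 to 11.6) of lost islands, and inside them 2.95% (1.87 to 4.61) and 8.11% (6.82 to 9.62). The Gfi1 list of Cas9 neurospheres overlapped 96.9% of kept and 89.8% of lost islands inside the windows, and 90.7% and 76.2% outside them. With the Suz12F2 Gfi1 list the shares were 93.1% and 83.8% inside, and 87.4% and 71.6% outside. These shares were not adjusted for length.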

How the data were processed

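The authors deposited 1 list of enriched regions per library, 11 lists in all; the 3 input libraries were not used here. Per the names given to the deposited lists, H3K27me3 and neurosphere islands were called with a window of 200 bp, a gap of 600 bp and a false discovery rate of 0.00001. The caller of the H3K4me3 and H3K27ac peaks, not given in the sources used here, could not be named. Tools named with no role, per the submitters' processing notes, are SICER 1.1, R 2.14.0, SAMtools, Picard and BWA 0.5.9-r26, with build mm9. Each region carries a deposited score, whose meaning the files do not state, used only to rank regions within 1 list. Depth per library is unknown. Region numbers in the H3K27me3 lists show that 71 numbers of the Cas9 list and 105 of the knockout list were not analysed here.

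To each deposited island end, a last base in 0-based counting, 1 bp was added. Overlap meant 1 bp or more. Python 3.11.15, numpy 2.4.6, scipy 1.17.1, pandas 2.3.3 and matplotlib 3.10.9 were used. Overlaps with 10 lists were checked against bedtools 2.31.1, where 0 islands differed, and on simulated data 0 of 2000 planted overlaps were missed. Wilson and Newcombe 95% intervals were computed over regions.

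The kept islands and the lists were chosen with earlier results of these data known. Regions named are the 10 highest-scoring kept islands, the 5 highest-scoring of each set described (90% or more kept, knockout-alone H3K4me3 or H3K27ac, H3K4me3 in both cells, within Cas9 antibody islands, outside all neurosphere islands) and 3 at each limit of the rule. Planned gene lists were not used, since no mm9 annotation was used here. Alternatives were 50% cover, the upper 50% of scores of each list, a limit of 10 kb, 50% overlap with the other list, and removal of Cas9 antibody islands. Removing Cas9 antibody islands from the count of kept and lost stretches, and reading only the central 50% of islands, were chosen after seeing the data, as were the dense windows, the autosome counts and the peak ranks.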

Additional observations from a re-analysis of the deposited data

How the results depend on the processing

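No paired analysis was possible because every group held 1 library. With 10 results and 7 alternative settings, 63 values were computed, of which 31 stayed within the 95% interval of the reported value, and 32 left it. Among the differences whose interval lay on 1 side of zero, 0 changed sign; H3K27ac in Cas9 cells, whose interval contains zero, went from 0.162 to -0.148 points with 50% cover. Differences below are kept minus lost islands, in percentage points. With at least 50% of an island covered, kept islands were 6.46% of islands, with a median of 77.8% kept and a score percentile of 47.9. The differences were then -3.44 and -5.12 for H3K4me3 in Cas9 cells and the knockout, -2.32 for knockout H3K27ac, 12.7 and 14.2 for the Gfi1 lists of Cas9 and Suz12F2 neurospheres, and 4.86 for the Cas9 antibody lists. With the upper 50% of knockout scores, the share was 7.75%, the median kept 64.3%, and the H3K4me3 differences -2.30 and -1.93. With the upper 50% of Cas9 scores, the share was 14.3%, the median kept 44.1%, the percentile 82.0, the Gfi1 differences 8.29 and 9.13, and that of the Cas9 antibody 11.3. Under 10 kb the share was 10.4%, the median kept 61.9%, the percentile 54.6, the H3K4me3 differences -2.02 and -1.93, and that of the Cas9 antibody 6.59. Without islands in Cas9 antibody islands the share was 10.4% and the percentile 57.7. With 50% overlap the Suz12F2 Gfi1 difference was 18.5. With the upper 50% of the other list's scores, differences were -1.91 for knockout H3K4me3, 19.2 and 19.8 for the Gfi1 lists and 5.89 for the Cas9 antibody. The cause of these shifts was not tested, apart from the changed choice of islands itself. The Gfi1 and Cas9 antibody differences stayed above zero in every setting run. Read depth is unknown, so loss of the mark and signal below the calling threshold cannot be told apart.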
